A study of Mus musculus with 4 samples.

Results

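Amacrine cells are inhibitory interneurons of the inner retina that contact bipolar cell terminals, ganglion cells and one another. Most of them release GABA or glycine, and the starburst amacrine cells release acetylcholine together with GABA. Expression was examined for 9 genes of this cell class, chosen by name from the 22095 loci listed in the deposited table. They comprised the GABA-synthesizing enzymes *Gad1* and *Gad2*, the vesicular transporter of GABA and glycine *Slc32a1*, the glycine transporter *Slc6a9*, and the acetylcholine genes *Chat* and *Slc18a3*. The transcription factors *Tfap2a* and *Tfap2b* and the calcium-binding protein gene *Calb2* (calretinin) completed the set. Of the 9 genes, 7 were listed under these symbols, and *Tfap2a* and *Tfap2b* were listed under the older symbols *Tcfap2a* and *Tcfap2b*. These genes are not exclusive to amacrine cells: horizontal cells also use GABA, and calretinin is found in ganglion cells.

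Polyadenylated RNA was measured in 4 retina libraries from mice aged 3 weeks, labelled as strain C57BL/6J. The *rd7* mice carry a mutation of *Nr2e3*, which encodes a nuclear receptor of rod photoreceptors, and the controls were wild type. Each genotype had 2 libraries, and each library pooled 8 retinas of 4 mice, 2 of each sex, so the spread between libraries is a spread between pools. Values are FPKM (fragments per kilobase of exon, scaled to the mapped reads of a library), which allow levels of different genes to be compared per length. Because whole retinas were used, more cells of a type and more RNA per cell cannot be told apart.

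The mutated gene itself had an *Nr2e3* level of 2493 and 1589 FPKM in *rd7* and of 385 and 394 FPKM in the wild type. The submitters describe a raised transcript level as a property of this mutant. Estimated depth was 3.52e+07 to 3.55e+07 reads per library. This estimate uses only values inside a window chosen by eye, which bounds it and can by itself make the libraries look alike. Equal depth was thus not shown. Across 12655 genes tested with limma and Benjamini-Hochberg adjustment at an FDR of 5%, 37.6% were higher and 8.80% were lower in *rd7*. Both *rd7* values lay above both wild-type values in 57.1% of genes and below them in 19.5%. The median log2 fold change over these genes was 0.15, which median-ratio scaling of the libraries brought to -0.0049. After that scaling 19.7% of genes were higher and 19.6% were lower, and after correcting for the GC content and length of exons 12.5% were higher and 15.2% were lower. Changes of the amacrine genes were therefore read against these shares, and each is given below also after median-ratio scaling.

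All 9 genes passed the filter on low values, with mean FPKM of at least 1 and a successful estimate in every library. At an FDR of 5%, 5 of them rose in *rd7* (*Gad1*, *Gad2*, *Slc32a1*, *Chat* and *Tfap2b*), 1 fell (*Slc18a3*) and 3 were not called (*Slc6a9*, *Tfap2a* and *Calb2*). The rises were between 17.9% and 30.2% of the wild-type mean, and the median log2 fold change of the 9 genes was 0.24. In the same 5 genes both *rd7* values were above both wild-type values. With so many genes higher in the whole table, these counts describe the 9 genes and do not set them apart. After median-ratio scaling, only *Tfap2b* was called higher and only *Slc18a3* lower, and the median of the 9 log2 fold changes was 0.08. Leaving out a wild-type library ended most calls at fold changes of about the same size, and fewer of all genes were called too. In this fit the lone library is assumed to vary like the *rd7* pair. Without the first wild-type library, log2 fold changes were 0.24 to 0.31 for the 5 genes that rose. Without the second, *Gad1* was at 0.42 and *Tfap2b* at 0.33.

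**Figure D1:**
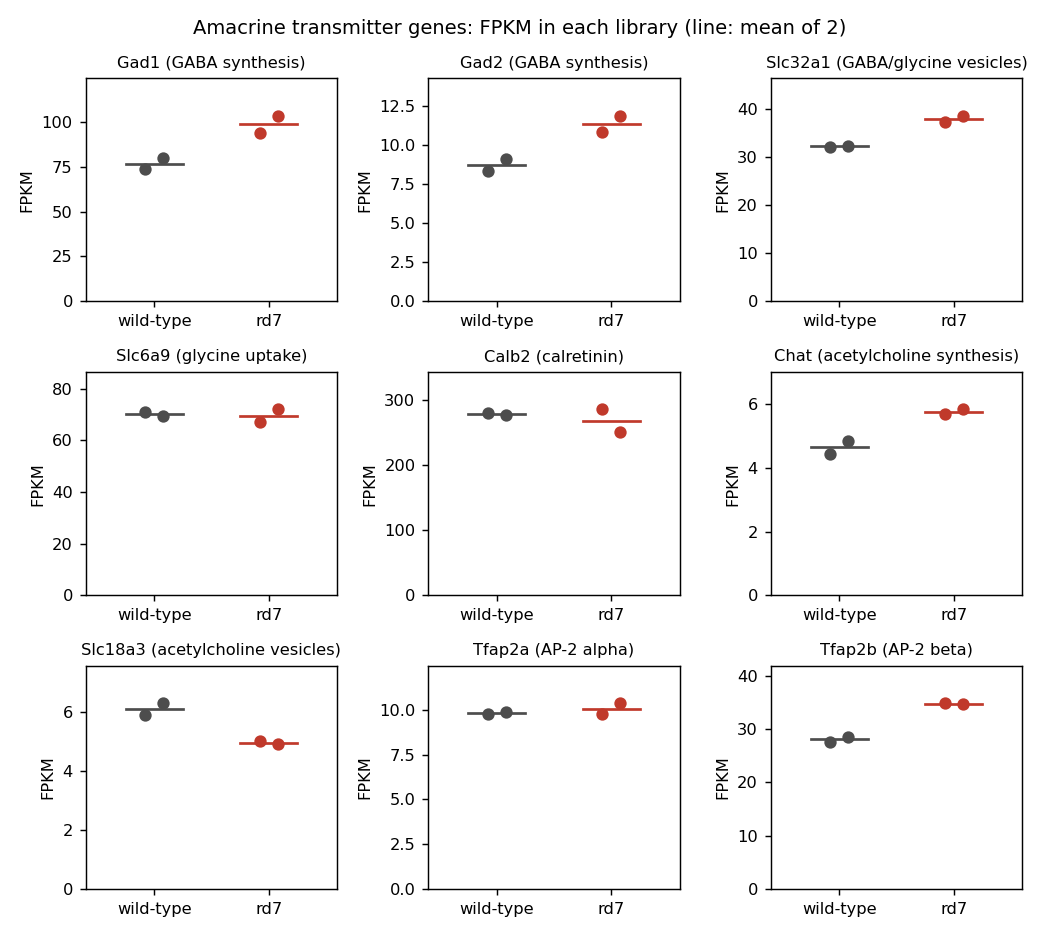
FPKM (vertical axes, from 0) of the 9 genes in each library, with wild-type libraries in grey, *rd7* libraries in red and a line at the mean of 2 libraries. *Gad1*, *Gad2*, *Slc32a1*, *Chat* and *Tfap2b* lie higher in both *rd7* libraries, *Slc18a3* lies lower, and the genotypes overlap for *Slc6a9*, *Calb2* and *Tfap2a*.

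The levels of the 9 genes spanned a wide range per length of transcript. In the wild-type libraries the order from high to low was *Calb2*, *Gad1*, *Slc6a9*, *Slc32a1*, *Tfap2b*, *Tfap2a*, *Gad2*, *Slc18a3* and *Chat*, and both libraries gave the same order. The wild-type means ran from 278 FPKM for *Calb2* to 4.66 FPKM for *Chat*. No neighbours in this order overlapped in their library values. Both *rd7* libraries also shared an order, in which *Gad2* stood above *Tfap2a* and *Chat* stood above *Slc18a3*, the reverse of the wild type. The other genes kept their places.

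The GABA-synthesizing enzymes rose together. *Gad1* and *Gad2* encode the large and the small form of glutamate decarboxylase, which makes GABA from glutamate. *Gad1* (chr2:70400221-70440069, mm9) had 93.9 and 104 FPKM in *rd7* and 73.6 and 79.7 FPKM in the wild type. Both *rd7* libraries were above both wild-type libraries, a mean difference of 28.8%. The log2 fold change of *Gad1* was 0.36 with a standard error of 0.07 and a 95% interval of 0.19 to 0.53 (limma, Benjamini-Hochberg adjusted p = 0.00926). After median-ratio scaling it was 0.21 with an adjusted p of 0.0571 from limma. After the GC and length correction described below, *Gad1* was at 0.08 and *Gad2* at 0.05. Neither was then called (adjusted p = 0.357 and 0.609 from limma).

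*Gad2* (chr2:22477847-22549397) was expressed at a much lower level, with 10.9 and 11.9 FPKM in *rd7* and 8.36 and 9.13 FPKM in the wild type. The genotypes again did not overlap, and the mean difference was 30.2%. For *Gad2*, the log2 fold change was 0.38 with a standard error of 0.08 and a 95% interval of 0.19 to 0.57 (limma, Benjamini-Hochberg adjusted p = 0.0117), and 0.22 after median-ratio scaling (adjusted p = 0.0622). The ratio of *Gad1* to *Gad2*, which does not depend on the scaling of a library, was 8.65 and 8.69 in *rd7* and 8.81 and 8.73 in the wild type. The enzymes thus kept nearly the same proportion, with a mean log2 difference of the ratio of -0.02. The ratios given here and below were chosen after values had been seen and carry no test.

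The promoters of both enzyme genes are shown because the genes moved together and one of them holds matches to the motif of AP-2, the protein family that *Tfap2a* and *Tfap2b* encode. Sequences are from RefSeq on GRCm38.p6, 250 bases before to 50 bases after the start site, 5′ to 3′ on the gene's strand. Capitals mark each match to GCCNNNGGC, which reads the same on both strands. The *Gad1* promoter is chr2:70561879-70562178 and the *Gad2* promoter is chr2:22622077-22622376, both on the plus strand of that build.

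*Gad1* promoter: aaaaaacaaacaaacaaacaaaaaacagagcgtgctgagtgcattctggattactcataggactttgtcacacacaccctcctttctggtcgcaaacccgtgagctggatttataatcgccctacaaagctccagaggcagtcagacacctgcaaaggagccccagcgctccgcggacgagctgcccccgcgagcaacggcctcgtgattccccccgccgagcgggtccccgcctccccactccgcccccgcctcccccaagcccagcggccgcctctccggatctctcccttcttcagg

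*Gad2* promoter: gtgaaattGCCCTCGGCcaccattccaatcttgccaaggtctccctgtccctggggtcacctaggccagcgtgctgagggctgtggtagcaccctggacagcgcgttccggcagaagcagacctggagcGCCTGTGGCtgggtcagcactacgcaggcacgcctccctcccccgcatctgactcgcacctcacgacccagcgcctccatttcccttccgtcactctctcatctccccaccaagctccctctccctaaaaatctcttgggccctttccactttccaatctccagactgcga

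The *Gad2* promoter held 2 matches and the *Gad1* promoter held 0. Of all 32851 promoters of this length, 16.6% held at least 1 match. A match describes letters in this window and is no evidence of binding.

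*Slc32a1* encodes the transporter that loads both GABA and glycine into synaptic vesicles. At chr2:158436494-158441483 it had 37.3 and 38.7 FPKM in *rd7* and 32.2 FPKM in both wild-type libraries. The genotypes did not overlap, and the mean difference was 17.9%. On the log2 scale *Slc32a1* was higher by 0.24 with a standard error of 0.05 and a 95% interval of 0.12 to 0.36 (limma, Benjamini-Hochberg adjusted p = 0.0117). After median-ratio scaling it was 0.08, with an adjusted p of 0.223 from limma. The ratio of *Gad1* to *Slc32a1* was 2.52 and 2.68 in *rd7* and 2.29 and 2.47 in the wild type.

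*Slc6a9* encodes the plasma membrane glycine transporter by which glycinergic amacrine cells take up their transmitter. It was not called in either direction. *Slc6a9* (chr4:117507863-117541910) had 67.1 and 72.0 FPKM in *rd7* and 71.1 and 69.3 FPKM in the wild type. These values overlapped, and the wild-type values lay between the *rd7* values. For *Slc6a9*, the log2 fold change was -0.01 with a 95% interval of -0.15 to 0.12 (limma, Benjamini-Hochberg adjusted p = 0.843), and -0.17 after median-ratio scaling (adjusted p = 0.0637). The ratio of *Gad1* to *Slc6a9* was 1.04 and 1.15 in the wild type and 1.40 and 1.44 in *rd7*. It was higher in both *rd7* libraries, by a mean of 0.38 on the log2 scale. The exons of these genes differ in GC content and in length. After the GC and length correction described below the log2 fold changes were 0.08 for *Gad1* and -0.04 for *Slc6a9*, so most of this difference was gone.

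The acetylcholine genes moved in opposite directions. *Chat* encodes choline acetyltransferase, the synthesizing enzyme, and *Slc18a3* encodes the transporter that loads acetylcholine into vesicles. Both mark the starburst amacrine cells. *Chat* (chr14:33221389-33279095, minus strand) had 5.69 and 5.84 FPKM in *rd7* and 4.45 and 4.87 FPKM in the wild type. Both *rd7* values were higher, a mean difference of 23.8%. On the log2 scale *Chat* was higher by 0.30 with a standard error of 0.08 and a 95% interval of 0.11 to 0.49 (limma, Benjamini-Hochberg adjusted p = 0.0237), and 0.15 after median-ratio scaling (adjusted p = 0.155).

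*Slc18a3* (chr14:33275623-33278036, minus strand) had 5.02 and 4.91 FPKM in *rd7* and 5.88 and 6.29 FPKM in the wild type. Both *rd7* values were below both wild-type values, and the mean fell by 18.5%. The log2 fold change of *Slc18a3* was -0.29 with a standard error of 0.07 and a 95% interval of -0.47 to -0.11 (limma, Benjamini-Hochberg adjusted p = 0.022). After median-ratio scaling, which lowers every log2 fold change by about the median of all genes, it was -0.44 with an adjusted p of 0.00714 from limma. The ratio of *Chat* to *Slc18a3* was 1.13 and 1.19 in *rd7* and 0.757 and 0.773 in the wild type. Its mean log2 difference of 0.60 was the largest among the ratios between pairs of the 9 genes that were computed.

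*Chat* and *Slc18a3* share one locus. The single exon of *Slc18a3* spans 2414 bases of the first intron of *Chat* on the same strand, between *Chat* exon 1 (chr14:33278993-33279095) and exon 2 (chr14:33273911-33274099). It starts 956 bases beyond *Chat* exon 1, and 0 annotated *Chat* exons overlap it. Their FPKM rest on few reads for their size. By the rough depth estimate above, these were 442 to 577 reads per library for *Chat* and 416 to 539 for *Slc18a3*. Reads from unspliced *Chat* RNA over this intron and reads from *Slc18a3* cannot be told apart in these files.

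**Figure D2:**
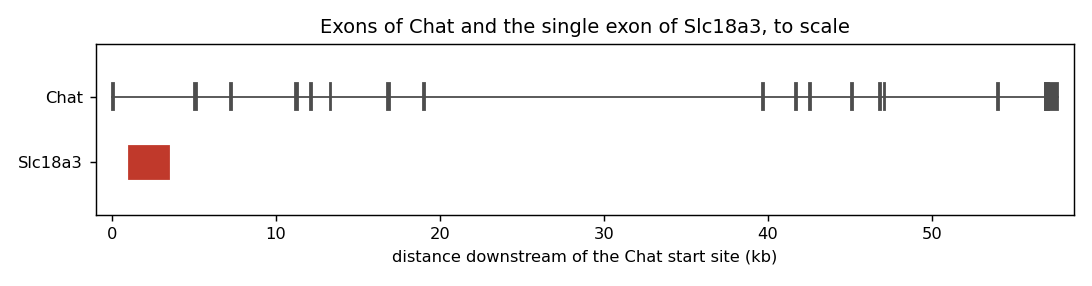
Exons of *Chat* (grey boxes, introns as a line) and the single exon of *Slc18a3* (red box) against the distance downstream of the *Chat* start site in kilobases. The *Slc18a3* exon of 2414 bases lies wholly inside the first intron of *Chat* and covers 0 of its exons.

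The promoters of both genes are shown because the genes lie on the same strand so near to each other and yet moved apart. They are given as above, at chr14:32465860-32466159 for *Chat* and chr14:32464801-32465100 for *Slc18a3*, both on the minus strand of GRCm38.p6.

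*Chat* promoter: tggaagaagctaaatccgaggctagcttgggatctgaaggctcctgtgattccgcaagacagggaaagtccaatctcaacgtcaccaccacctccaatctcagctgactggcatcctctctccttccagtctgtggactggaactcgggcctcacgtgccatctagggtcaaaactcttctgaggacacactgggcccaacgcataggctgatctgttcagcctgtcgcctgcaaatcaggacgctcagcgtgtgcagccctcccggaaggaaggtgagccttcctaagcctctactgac

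*Slc18a3* promoter: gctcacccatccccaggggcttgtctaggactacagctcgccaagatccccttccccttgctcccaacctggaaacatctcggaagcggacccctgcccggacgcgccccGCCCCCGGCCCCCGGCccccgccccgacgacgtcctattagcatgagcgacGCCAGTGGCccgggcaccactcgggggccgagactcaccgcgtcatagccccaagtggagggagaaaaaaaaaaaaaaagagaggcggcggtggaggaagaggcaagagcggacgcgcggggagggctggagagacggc

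The *Slc18a3* promoter held 3 matches to the AP-2 motif, of which a pair overlap, and the *Chat* promoter held 0. The promoters of *Slc32a1*, *Slc6a9*, *Tfap2a* and *Tfap2b* in the same set also held 0 matches. The motif AAGTCA that NR2E3 can bind, searched on both strands, had 1 match in 1 of 3 *Slc6a9* promoters and 1 match in 1 of 2 *Tfap2a* promoters. It had 0 matches in the promoters of *Gad1*, *Gad2*, *Slc32a1*, *Chat*, *Slc18a3* and *Tfap2b*, and 15.1% of all promoters of this length held it. *Calb2* had no promoter in the set that was used.

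**Figure D3:**
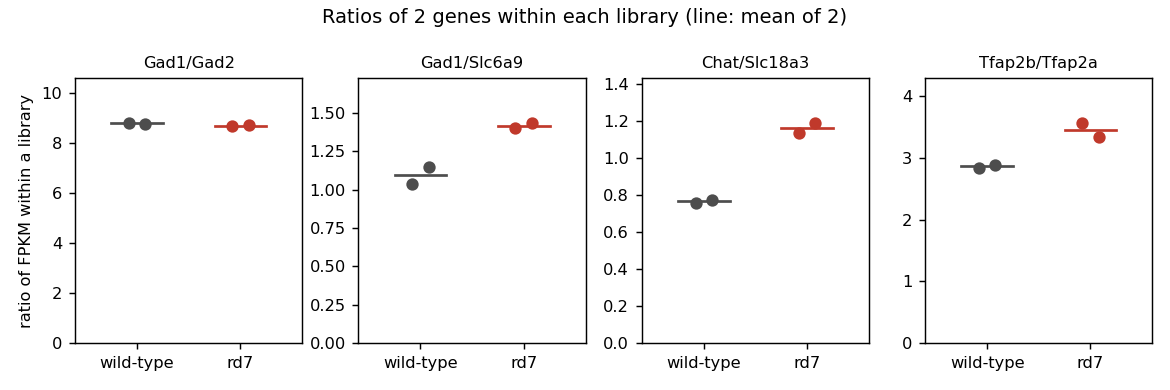
Ratio of the FPKM of a pair of genes within each library (vertical axes, from 0), with wild-type libraries in grey, *rd7* libraries in red and a line at the mean. The *Gad1*/*Gad2* ratio stayed between 8.65 and 8.81, while the *Chat*/*Slc18a3* ratio went from 0.757 and 0.773 in the wild type to 1.13 and 1.19 in *rd7*.

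Of the AP-2 factors, which act in the development of amacrine cells, *Tfap2b* rose and *Tfap2a* was not called. *Tfap2b* (chr1:19198995-19228815) had 34.9 and 34.7 FPKM in *rd7* and 27.7 and 28.5 FPKM in the wild type. Both *rd7* libraries were higher, by 23.9% of the mean. The log2 fold change of *Tfap2b* was 0.31 with a standard error of 0.05 and a 95% interval of 0.19 to 0.43 (limma, Benjamini-Hochberg adjusted p = 0.00505). After median-ratio scaling it was 0.15 with an adjusted p of 0.0428 from limma, and after the GC and length correction 0.01 with an adjusted p of 0.929.

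*Tfap2a* (chr13:40811044-40829192) had 9.76 and 10.4 FPKM in *rd7* and 9.74 and 9.88 FPKM in the wild type. The lower *rd7* library lay between the wild-type libraries. The log2 fold change of *Tfap2a* was 0.04 with a 95% interval of -0.12 to 0.19 (limma, Benjamini-Hochberg adjusted p = 0.656), and its sign turned after median-ratio scaling, to -0.12. The ratio of *Tfap2b* to *Tfap2a* was 3.57 and 3.35 in *rd7* and 2.84 and 2.88 in the wild type.

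*Calb2*, which encodes the calcium buffer calretinin of several amacrine and ganglion cell types, had the highest level of the 9 genes. At chr8:112666438-112692106 it had 285 and 250.8 FPKM in *rd7* and 280.1 and 276 FPKM in the wild type. The *rd7* libraries lay on either side of the wild-type libraries, and their spread (SD 24.4, n = 2) was wider than that of the wild type (SD 2.82, n = 2). For *Calb2*, the log2 fold change was -0.06 with a 95% interval of -0.23 to 0.12 (limma, Benjamini-Hochberg adjusted p = 0.545), and -0.21 after median-ratio scaling (adjusted p = 0.0593). Without the first *rd7* library *Calb2* was called lower (-0.15, adjusted p = 0.0149 from limma), with the spread taken from the narrow wild-type pair alone, and without the second it was at 0.04 and not called.

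The base composition and the exon length of the genes both went with part of these results. Exonic GC content was 44.3% for *Gad2*, 46.0% for *Tfap2b* and 47.6% for *Gad1*, against 54.3% for *Chat*, 61.2% for *Slc18a3* and 61.9% for *Slc32a1*. Length split the genes in the same way. In the same order, exons covered 5876, 6391 and 7587 bases, against 2810, 2414 and 2806 bases. The correction used here fits GC content and length together, so their parts cannot be told apart. After a correction for GC content and length over all genes, which was chosen after values had been seen, the log2 fold change was 0.08 for *Gad1*, 0.05 for *Gad2* and 0.01 for *Tfap2b*. None of these 3 was called, with adjusted p of 0.357, 0.609 and 0.929 from limma. *Chat* was at 0.23 and was no longer called either (adjusted p = 0.0745 from limma). *Slc32a1* at 0.26 (adjusted p = 0.0218) and *Slc18a3* at -0.26 (adjusted p = 0.0467) were the only members that limma called after this correction. *Slc18a3* was thus the only one of the 9 genes called at an FDR of 5% on the deposited values, after median-ratio scaling and after the GC and length correction, and it was the gene that fell. Without the first or the second wild-type library it was at -0.34 or -0.24, about as large, and was not called (adjusted p = 0.117 and 0.193 from limma), with the spread then taken from the *rd7* pair.

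**Figure D4:**
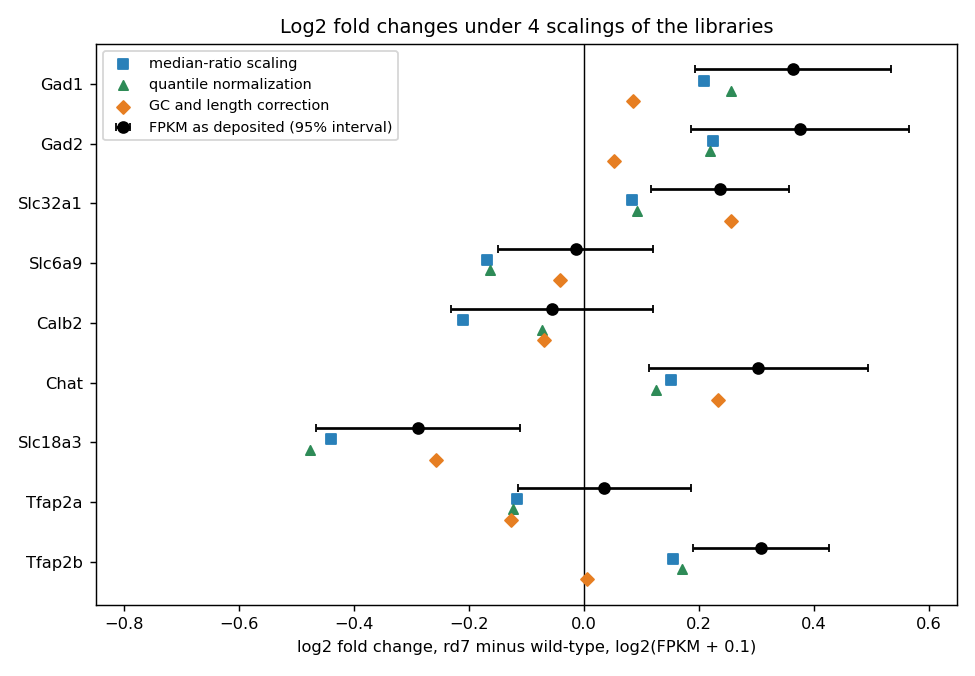
Log2 fold change of *rd7* minus wild type (horizontal axis, log2 of FPKM + 0.1) for the 9 genes on the deposited FPKM (black, with 95% intervals), after median-ratio scaling (blue), quantile normalization (green) and correction for GC content and length (orange). *Slc18a3* lies below 0 under each of them, from -0.26 to -0.48, while *Gad1*, *Gad2* and *Tfap2b* come near 0 after the GC and length correction.

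The other genes of the GABA pathway are mostly receptors, which receive the transmitter, and transporters and enzymes, which clear it. Of 21 genes listed, 20 were tested, of which 17 rose and 0 fell in limma (0 also at an unadjusted p under 0.05), with a median log2 fold change of 0.48. After median-ratio scaling 13 were called higher, and after the GC and length correction 9 were, with 0 lower in both. Over all genes 37.6%, 19.7% and 12.5% were higher under these settings. Without the first wild-type library fewer of the list were called higher, as were fewer of all genes. Log2 fold changes of the list were then 0.13 to 1.32. The 3 genes not called were *Gabrg1*, *Gabrd* and *Gabrr2*, and *Gabra5* was under the filter. Among those that rose were the transporter *Slc6a13* and the GABA-A receptor subunit *Gabrg3*.

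*Gabrg3* was at 1.76 and 1.81 FPKM in *rd7* and at 0.939 and 0.982 FPKM in the wild type, with a log2 fold change of 0.83 (adjusted p = 0.00651 from limma). *Slc6a13* was low, at 2.14 and 1.70 FPKM in *rd7* and 1.22 and 0.707 FPKM in the wild type, with a log2 fold change of 0.96 (adjusted p = 0.0311 from limma). Without the second wild-type library *Slc6a13* was at 0.61 and not called, and without the first *Gabrg3* was at 0.80 and not called. *Slc6a13* was also not called after median-ratio scaling (0.82), and after the GC and length correction neither it (0.88) nor *Gabrg3* (0.47) was called.

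In the glycine pathway, 8 of 9 tested genes rose and 0 fell in limma among 10 listed (0 also at an unadjusted p under 0.05), with a median log2 fold change of 0.65. The counts were 6 higher and 1 lower after median-ratio scaling, the latter being *Shmt2*, and 4 higher and 0 lower after the GC and length correction, beside 37.6%, 19.7% and 12.5% of all genes higher. Of all genes, 19.6% were lower after median-ratio scaling. Leaving out the first or the second wild-type library left fewer of the list and fewer of all genes called higher. Log2 fold changes of the list then ran from -0.16 to 1.15 and from -0.10 to 1.56. *Shmt2*, a glycine-producing enzyme of the mitochondrion, was the 1 gene not called on the deposited values, and *Shmt1* was under the filter. *Slc6a5*, the neuronal glycine transporter of other parts of the nervous system, had 3.59 and 4.28 FPKM in *rd7* and 1.55 and 1.83 FPKM in the wild type (log2 fold change 1.17, adjusted p = 0.0023 from limma). It stayed far below *Slc6a9*, with a ratio of 0.0535 and 0.0594 in *rd7* and 0.0219 and 0.0263 in the wild type.

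Glycine receptor subunits were among the genes that rose. *Glra3* had 6.01 and 6.09 FPKM in *rd7* and 1.98 and 2.67 FPKM in the wild type, a log2 fold change of 1.36 (adjusted p = 0.00191 from limma). *Glra1* had 5.70 and 8.01 FPKM against 3.84 and 3.90 FPKM, a log2 fold change of 0.79 (adjusted p = 0.011 from limma). *Gphn*, which encodes the receptor-anchoring protein gephyrin and had the highest level of this list, was at 29.2 and 26.4 FPKM in *rd7* and 22.0 and 23.0 FPKM in the wild type (log2 fold change 0.30, adjusted p = 0.0161 from limma). Without the first or the second wild-type library neither *Glra1* (0.78 and 0.80) nor *Gphn* (0.27 and 0.33) was called. *Gphn* was also not called after median-ratio scaling (0.15, adjusted p = 0.117 from limma) or the GC and length correction (0.025, adjusted p = 0.786 from limma).

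In the acetylcholine pathway, 11 of 13 tested genes rose and 0 fell in limma among 16 listed (0 also at an unadjusted p under 0.05), with a median log2 fold change of 0.51. After median-ratio scaling 8 were higher, and after the GC and length correction 7 were, with 0 lower in both, where 37.6%, 19.7% and 12.5% of all genes were higher. Without the first wild-type library fewer of the list and fewer of all genes were called higher, with log2 fold changes of the list from -0.04 to 2.54. *Bche* and *Chrm4* were under the filter, *Chrnb3* had no successful estimate in at least 1 library, and *Chrna4* and *Ache* were not called. *Ache*, which encodes the enzyme that breaks down acetylcholine, had 20.9 and 22.8 FPKM in *rd7* and 22.1 and 22.4 FPKM in the wild type, which overlapped. *Slc5a7*, the choline transporter that supplies *Chat* with its substrate, was at 3.60 and 3.90 FPKM against 2.38 and 2.83 FPKM (log2 fold change 0.51, adjusted p = 0.016 from limma). After median-ratio scaling *Slc5a7* was at 0.36 and called (adjusted p = 0.0486 from limma), and after the GC and length correction it was at 0.15 and not called (adjusted p = 0.321 from limma). *Ache* and *Slc5a7* were picked for their place in the pathway after values had been seen.

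The largest rises of this list were in receptor genes. *Chrna5*, a nicotinic receptor subunit, had 7.14 and 6.93 FPKM in *rd7* and 0.921 and 1.13 FPKM in the wild type, a log2 fold change of 2.67 (adjusted p = 0.000218 from limma). *Chrna7*, the nicotinic subunit that forms receptors on its own, had 15.0 and 14.5 FPKM against 2.93 and 3.20 FPKM, a log2 fold change of 2.23 (adjusted p = 7.6e-05 from limma). *Chrm2*, a muscarinic receptor, had 3.46 and 3.84 FPKM against 1.51 and 1.63 FPKM, a log2 fold change of 1.16 (adjusted p = 0.00143 from limma). These 3 log2 fold changes lie above the 95% interval of that of *Chat*. The most highly expressed gene of the list, the nicotinic subunit *Chrna6*, had 50.1 and 52.7 FPKM in *rd7* and 40.7 and 42.1 FPKM in the wild type (log2 fold change 0.31, adjusted p = 0.00628 from limma). *Chrna6* was not called after median-ratio scaling, at 0.16 with an adjusted p of 0.0575 from limma, nor after the GC and length correction, at 0.08 with an adjusted p of 0.302 from limma, nor without the first wild-type library, at 0.29.

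**Figure D5:**
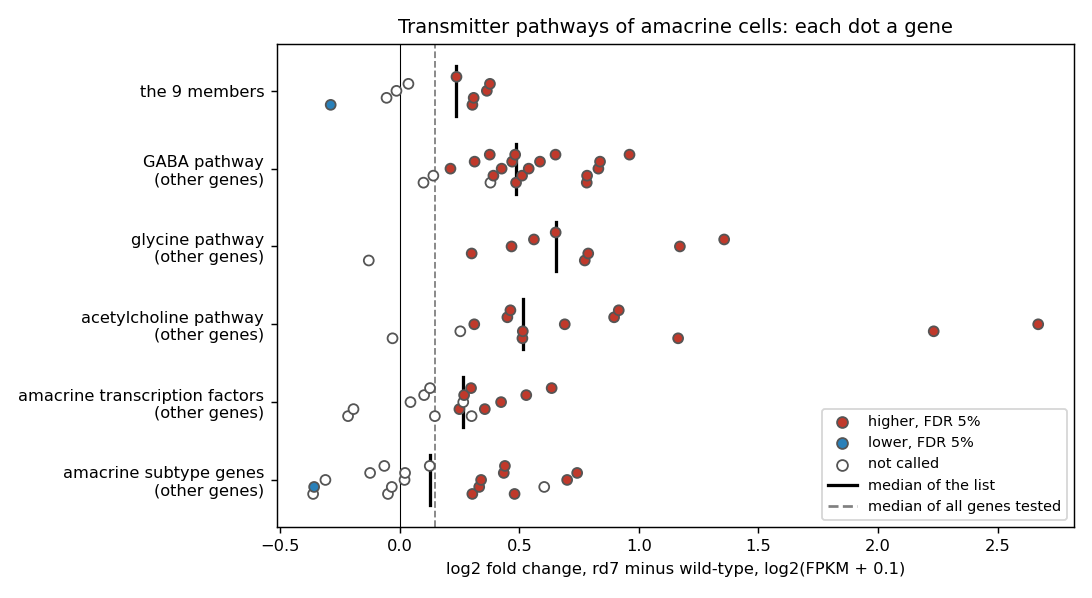
Log2 fold change of *rd7* minus wild type (horizontal axis, log2 of FPKM + 0.1) of each tested gene in the set of 9 and in other lists. Genes called higher are in red, lower in blue and not called in white. Solid bars are list medians. Among the GABA, glycine, acetylcholine, transcription factor and subtype lists they run from 0.12 for the subtype genes to 0.65 for the glycine pathway. The dashed line is the median of all genes tested, 0.15.

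Of the other transcription factors of amacrine cells, some act in progenitors and some in mature types. Of 20 listed, 15 were tested, of which 7 rose and 0 fell in limma (1 at an unadjusted p under 0.05), with a median log2 fold change of 0.27. Fewer of the list were called higher without the first or the second wild-type library, as were fewer of all genes. Log2 fold changes of the list then ran from -0.27 to 0.64 and from -0.19 to 0.63. The 7 stand beside 37.6% of all genes higher. The counts below stand beside 19.7% higher and 19.6% lower after median-ratio scaling, and 12.5% and 15.2% after the GC and length correction. After median-ratio scaling *Bhlhe22* was higher and *Neurod2* was lower, and after the GC and length correction *Bhlhe22* was higher. *Foxn4*, *Ptf1a*, *Neurod6* and *Fezf1* were under the filter, the first 2 of which act early in amacrine cell formation. *Pax6*, a factor of retinal progenitors and inner retinal neurons, was at 90.9 and 88.0 FPKM in *rd7* and 70.9 and 77.7 FPKM in the wild type (log2 fold change 0.27, adjusted p = 0.0163 from limma), and its sign turned to -0.06 after the GC and length correction. *Bhlhe22* was at 15.9 and 13.3 FPKM against 9.35 and 9.30 FPKM, with a log2 fold change of 0.63 (adjusted p = 0.00434 from limma). The next largest rises were 0.53 for *Lhx9* and 0.42 for *Isl1*, with adjusted p of 0.017 and 0.0364 from limma. *Isl1* also marks bipolar and ganglion cells. *Pax6* was not called without the first wild-type library (0.20), and *Lhx9* (0.56 and 0.50) and *Isl1* (0.46 and 0.39) were not called without either of them. Without the first *rd7* library *Isl1* was at 0.23, and after the GC and length correction *Lhx9* was at 0.19 and *Isl1* at 0.16, neither of them called.

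Among genes of amacrine subtypes, 19 of 21 were tested, of which 8 rose and 1 fell, with a median log2 fold change of 0.12. The 8 rises are close to the 37.6% of all genes that were higher, and 8.80% of all genes were lower. The median is under that of all genes. Fewer of the list were called in either direction without the first or the second wild-type library, as were fewer of all genes. Log2 fold changes of the list then ran from -0.45 to 0.74 and from -0.43 to 0.76. After median-ratio scaling 3 were higher and 5 were lower (*Sst*, *Npy*, *Cck*, *Th* and *Elavl3*), beside 19.7% and 19.6% of all genes. After the GC and length correction 2 were higher and 0 lower, beside 12.5% and 15.2% of all genes. *Ddc* and *Crh* were under the filter. Among the genes called, the largest rises were in *Slc17a8*, *Megf10* and *Calb1* (calbindin). *Slc17a8* is a vesicular glutamate transporter of an amacrine type, and *Megf10* is a cell surface receptor of starburst and horizontal cells. *Slc17a8* was at 5.94 and 7.25 FPKM in *rd7* and 3.87 and 3.89 FPKM in the wild type, with a log2 fold change of 0.74 (adjusted p = 0.00417 from limma). The log2 fold changes of *Megf10* and *Calb1* were 0.70 and 0.48, with adjusted p of 0.00623 and 0.0019 from limma, and *Calb1* was at 0.08 and not called after the GC and length correction (adjusted p = 0.248 from limma). *Gjd2*, a gap junction protein with the highest level of the list, was at 59.3 and 51.9 FPKM against 43.8 and 44.3 FPKM (log2 fold change 0.33, adjusted p = 0.0146 from limma). Without the first wild-type library *Slc17a8* (0.74), *Megf10* (0.64) and *Gjd2* (0.32) were not called, nor was *Gjd2* without the second (0.34), after median-ratio scaling (0.18) or after the GC and length correction (0.12).

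The gene that fell was *Sst*, which encodes somatostatin, with 3.19 and 3.45 FPKM in *rd7* and 4.26 and 4.30 FPKM in the wild type. Its log2 fold change was -0.36 (adjusted p = 0.018 from limma). It remained lower after median-ratio scaling, at -0.51 with an adjusted p of 0.0082, but was not called after the GC and length correction, at -0.18 with an adjusted p of 0.17 from limma. Without the first or the second wild-type library it was at -0.37 and -0.35 and not called. The other peptide genes of the list that were tested, *Npy*, *Vip*, *Tac1*, *Cck* and *Penk*, were not called on the deposited values, with log2 fold changes from -0.12 for *Cck* to 0.02 for *Penk*. After median-ratio scaling *Npy* and *Cck* were called lower, at -0.20 and -0.28 with adjusted p of 0.0309 and 0.0302 from limma.

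Genes of other retinal cells were counted in the same libraries, and their part in the values above was not tested. The counts that follow are on the deposited values unless stated, on which 37.6% of all genes were higher and 8.80% lower. After median-ratio scaling 19.7% were higher and 19.6% lower, and after the GC and length correction 12.5% and 15.2%. Of 13 presynaptic genes shared by retinal neurons, 4 rose and 0 fell in limma (0 also at an unadjusted p under 0.05, median log2 fold change 0.12), a share under that of all genes, and after median-ratio scaling 1 was higher and 2 were lower. Horizontal cell markers, cells that share the GABA genes, rose in 4 of 7 tested, with summed levels of 101 and 97.9 FPKM in *rd7* and 72.4 and 75.0 FPKM in the wild type. Ganglion cell markers, cells that share *Calb2*, rose in 3 of 11, with overlapping sums of 775 and 693 FPKM against 702 and 723 FPKM. That share is also under that of all genes, and after median-ratio scaling 1 was higher and 1 was lower. Bipolar markers, cells that carry many GABA and glycine receptors, rose in 10 of 12, with 987 and 830 FPKM against 686 and 651 FPKM. Müller cell markers rose in 5 of 10. Cone markers rose in 8 of 10, with 4517 and 4809 FPKM against 1453 and 1497 FPKM. Rod markers fell in 4 of 7, with 8875 and 9627 FPKM against 12136 and 12310 FPKM, summed over markers with a successful estimate in every library. Pigment epithelium markers rose in 5 of 5 tested of 8 listed, with 69.5 and 60.0 FPKM against 36.4 and 21.8 FPKM. Of 8 astrocyte, microglia and vessel markers, 5 were tested and 0 were called by limma (2 higher at an unadjusted p under 0.05). No gene of these lists was at 0 in all 4 libraries. After the GC and length correction 2 presynaptic, 2 horizontal, 1 ganglion and 7 bipolar genes were higher. So were 4 Müller, 8 cone and 3 pigment epithelium genes and 1 gene of the astrocyte, microglia and vessel list, and 5 rod genes were lower. Leaving out either wild-type library left fewer of all genes called. It also left fewer presynaptic, horizontal, ganglion, bipolar, Müller and pigment epithelium genes higher and fewer rod genes lower, and as many cone genes higher. Without the second *rd7* library more of all genes were called higher. So were more presynaptic, rod, bipolar, ganglion, horizontal, Müller and astrocyte, microglia and vessel genes. Without the first *rd7* library more of all genes were also called higher. So were more presynaptic, rod, cone, Müller and astrocyte, microglia and vessel genes, but fewer horizontal genes. In both fits the lone *rd7* library is assumed to vary like the wild-type pair.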

How the data were processed

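RNA from whole retinas was sequenced as single reads of 50 bp on 1 lane. The authors mapped the reads with TopHat 1.4.1 to mm9 and computed FPKM with Cufflinks 1.3.0, and deposited FPKM for every library with a status of each estimate. Since FPKM are not counts, tests for counts were not applied. The authors' Cuffdiff table (pooled FPKM, fold changes, p-values and q-values) was not used.

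The 2 *rd7* and 2 wild-type libraries were compared, with no block, on log2(FPKM + 0.1) in limma 3.58.1 (R 4.3.3) by a two-sided moderated test with a trend in eBayes. Genes needed a mean FPKM of 1 and a successful status in all 4 libraries, and p-values were adjusted by Benjamini-Hochberg over every gene tested, at an FDR of 5%. Of the loci, 262 lacked a successful status in at least 1 library. With this pseudocount, fold changes of low genes come out too small. The test was tried on simulated data with 200 of 12655 genes changed, far fewer than were called in the real data. Of changes of 0.25, 0.50, 1.00 and 2.00 on the log2 scale, it recovered 0%, 50%, 94% and 100%, and 4.69% of calls were false. Genes that were not called may therefore hold small changes. An exact permutation test of 2 against 2 libraries cannot give a p under 0.333 and was not used.

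The 9 genes and the 14 other lists (pathways of GABA, glycine and acetylcholine, amacrine transcription factors, amacrine subtypes, presynaptic genes, and markers of rods, cones, bipolar, ganglion, horizontal and Müller cells, of astrocytes, microglia and vessels, and of pigment epithelium) were chosen with earlier results of these data known. Named from the 5 amacrine lists are the gene with the highest FPKM, the 3 largest rises and up to 3 falls called, genes counted as not called or under the filter, and exceptions stated in the text. Some genes that this rule would name are not reported here. For the other lists, counts and sums are given. Older symbols were matched through RefSeq synonyms. Loci were counted from 1, and exons, GC content and length came from an annotation of mm9, in which 98.0% of tested genes were found. *Slc18a3* was not matched in that annotation, so its deposited locus was taken as 1 exon for its GC content, length and reads, on which its corrected value rests.

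Depth was estimated from the FPKM of 1 read in genes with 1 transcript, as a median within a window chosen by eye. The window ran from 0.02 to 0.036 FPKM times kilobases, and the medians of 0.0282 to 0.0285 lay near its middle. The depth is therefore approximate, and it covers counting error only. Alternatives were pseudocounts of 1 and 0.01, no filter, a filter at a mean FPKM of 5, quantile normalization, median-ratio scaling, no variance trend, an FDR of 1%, a replicate block, omitting each library in turn and, added after values had been seen, a GC and length correction (splines with 5 degrees of freedom). Summaries were made in Python 3.11.15.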

Additional observations from a re-analysis of the deposited data

How the results depend on the processing

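Over all genes, 4755 were higher and 1114 lower on the deposited values. The counts were 2492 and 2479 after median-ratio scaling, 2350 and 2404 after quantile normalization, 1550 and 1880 after the GC and length correction, and 2582 and 446 at an FDR of 1%. Leaving out each library in turn gave 1293 to 5484 higher and 224 to 1601 lower, with the lowest counts without the first wild-type library. Among the 9 amacrine genes, the count of 5 higher became 1, 2, 1 and 2 under the same 4 settings, and the count of 1 lower became 0 at an FDR of 1%. Leaving out a library gave 0 to 5 higher and 0 to 2 lower, with 0 higher without the first wild-type library, 2 higher without the second, and 0 lower without either. In the GABA, glycine, acetylcholine and transcription factor lists together, 43 genes were higher and 0 lower. The counts higher were 27 with a mean FPKM of at least 5, 28 after median-ratio scaling, 28 after quantile normalization, 21 after the GC and length correction and 28 at an FDR of 1%. The counts lower were 2 after median-ratio scaling, 2 after quantile normalization and 1 without a variance trend, and leaving out a library gave 20 to 46 higher and 0 to 1 lower. The filter on low values and the FDR change these counts by construction, and for the other settings the cause was not tested.

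Among the 9 genes and the named genes of the other lists that were followed through the alternatives, signs turned for *Tfap2a* (-0.12 after median-ratio scaling, -0.12 after quantile normalization, -0.13 after the GC and length correction, -0.0075 to 0.079 without a library), *Slc6a9* (-0.065 to 0.036 without a library), *Calb2* (-0.15 to 0.037 without a library) and *Pax6* (-0.061 after the GC and length correction). Other genes of the lists also turned, among them *Meis2*, *Ebf1* and *Elavl4*, which were called higher and were at -0.09, -0.01 and -0.03 after the GC and length correction. The log2 fold changes of the 6 amacrine genes of the 9 that were called kept their sign in 13 refits, *Gad1* from 0.08 to 0.43, *Gad2* from 0.05 to 0.44, *Slc32a1* from 0.08 to 0.26, *Chat* from 0.13 to 0.37, *Tfap2b* from 0.01 to 0.33 and *Slc18a3* from -0.48 to -0.24.

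Libraries with the same replicate number did not deviate together (r = -0.03 across genes), so the numbers do not pair them. The fit with a replicate block called 4508 genes higher and 1091 lower, among them 5 and 1 of the amacrine genes. With 2 pools per genotype, the wild-type spread rests on a single pair of libraries.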

Other observations

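Of the nicotinic receptor genes, 3 lie side by side on chromosome 9, at 4.92 to 4.96 Mb from *Nr2e3*, and all 3 rose. Of all genes, 37.6% were higher. Whether the nearness to *Nr2e3* or to each other had a part was not tested. *Chrna5* had the log2 fold change of 2.67 given above, *Chrna3* was at 0.69 (adjusted p = 0.00816 from limma) and *Chrnb4* at 0.92 (adjusted p = 0.0034 from limma). *Chrna3* had 4.21 and 3.53 FPKM in *rd7* and 2.19 and 2.52 FPKM in the wild type, and *Chrnb4* had 2.76 and 2.79 FPKM against 1.53 and 1.32 FPKM. After median-ratio scaling *Chrna3* was at 0.54 and *Chrnb4* at 0.77 (adjusted p = 0.0194 and 0.00809 from limma). After the GC and length correction they were at 0.44 and 0.75 (adjusted p = 0.0459 and 0.0109 from limma). These genes were picked after values had been seen. The muscarinic receptor *Chrm3* had 2.76 and 2.65 FPKM in *rd7* and 1.30 and 1.53 FPKM in the wild type (log2 fold change 0.90, adjusted p = 0.00395 from limma), and was also called after median-ratio scaling, at 0.75, and after the GC and length correction, at 0.78.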
